A study of Homo sapiens with 2 samples.

Results

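The subunits of the 3 nuclear RNA polymerases and of Mediator are described here in HCT116, an established line of human colorectal cancer cells, after siRNA transfection. Members were taken by gene symbol, all symbols of the POLR1, POLR2 and POLR3 series together with POLR3GL, and the numbered MED symbols with or without a final L. The rule took 62 of 50867 gene rows, 32 of RNA polymerase and 30 of Mediator, with 61 different symbols because POLR2J4 has 2 rows. The study made 1 library of total RNA from cells given a control siRNA and 1 from cells given an siRNA against PHF5A, a subunit of the SF3b complex that recognises the branch point in splicing. Both groups are the same cell line, and no other treatment or allele is named for either. The labels give neither the siRNA sequence nor the time after transfection, and effects of the siRNA on other transcripts cannot be told apart from those of PHF5A loss. With 1 library per group no test across samples was possible, no p-value is given, and every difference describes these 2 libraries only.

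RNA polymerase I makes the large ribosomal RNA precursor in the nucleolus. RNA polymerase II makes messenger RNA, and RNA polymerase III makes transfer RNA, the small ribosomal RNA and other short RNAs. Each enzyme has its own pair of large catalytic subunits, and all of them share a set of small ones. Mediator joins DNA-bound activators to RNA polymerase II at promoters. It has a head and a middle that touch the polymerase, a tail that many activators bind, and a detachable kinase module.

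Depth was 26552789 counts for the control and 25897412 for the knockdown library. PHF5A itself had 367 (control) and 91 (knockdown) counts, and was 3.93-fold lower per library total (interval 3.12 to 5.0), as its label says. A CPM ratio compares counts after each is divided by its library total, and its interval is an exact 95% one for counting error alone. Of 15 heart muscle markers, 15 reached 1 FPKM (counts per kilobase of exon, scaled to library size) in the control library while 14 were under 1 FPKM and 7 at 0 in the knockdown library. Summed, they took 99427 control counts (0.374%) and 325 knockdown counts (0.00125%). Those at 0 were MYH6, MYH7, NPPA, NPPB, ACTN2, PLN and RYR2. Fibroblast markers summed to 2741 and 833 counts, mainly from COL1A1 (1362 and 786) and COL3A1 (959 and 31), while DCN had 8 and 9. Blood markers summed to 526 and 363, nearly all from CD68 (518 and 361). PTPRC had 6 and 1 counts and HBB 2 and 1. HCT116 cells are not known for heart muscle transcripts, and the part of these markers in the results below was not tested. Epithelial keratins were high in both libraries (KRT19, 1046 and 1032 FPKM), while VIL1, an intestinal marker, had 0 and 1 counts. CDX2, an intestinal identity factor on the same list, had 822 and 367 counts and was 2.18-fold lower (1.93 to 2.48).

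A gene is called expressed here at 1 FPKM or more in the higher library, and its log2 ratio is that of FPKM + 1 in the knockdown over the control library. Of the 62 members 47 were expressed, 24 of RNA polymerase and 23 of Mediator. Their log2 ratios had a median of -0.18, beside -0.15 for all 8957 expressed genes. Of the 47, 31 (66.0%) had a ratio below 0, beside 62.0% of all expressed genes. At least 2-fold lower, by size alone, was 1 member, beside 6.2% of expressed genes, and at least 2-fold higher were 0, beside 2.53%. After median centring and after upper-quartile scaling 0 members were 2-fold lower. At a 1.5-fold threshold 9 members (19.1%) were lower and 3 (6.38%) higher, beside 18.2% and 8.45% of expressed genes. By the CPM ratio, with 0.5 added to each count, 4 members were at least 2-fold lower (8.51%, beside 13.8%) and 2 higher (4.26%, beside 5.64%). These shares are near the background or under it. Relative to the median of expressed genes the RNA polymerase median was -0.02 and the Mediator median -0.03. For RNA polymerase this rests on the filter and the length: it was -0.41 over the 14 rows of at least 5 FPKM and -0.18 with merged exon length. In a bulk library, fewer cells of a type and less RNA per cell cannot be told apart.

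**Figure D1:**
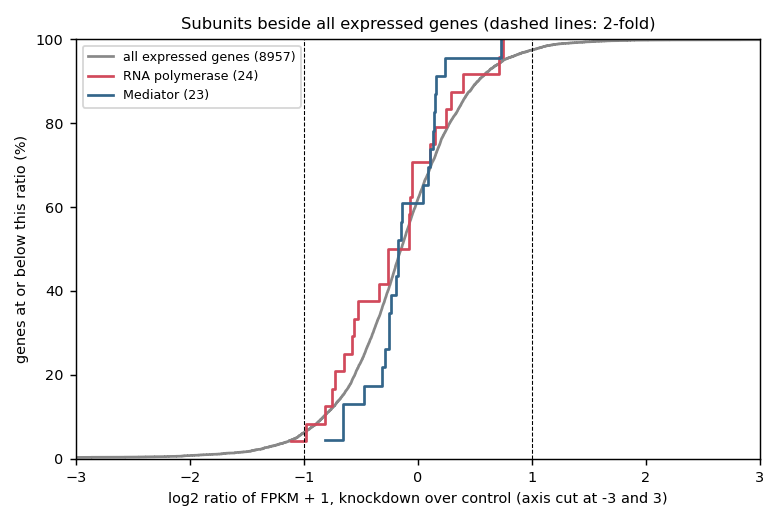
Share of genes (%) at or below each log2 ratio of FPKM + 1, for all 8957 expressed genes, 24 RNA polymerase rows and 23 Mediator rows, with dashed lines at 2-fold. Both families cross the middle near the curve of all genes, and 1 member lies beyond a 2-fold line.

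By SD, members spread less than all expressed genes. The SD of the log2 ratio was 0.43 over the 47 members, 0.50 over RNA polymerase and 0.34 over Mediator. It was 0.63 over all expressed genes and 0.60 over the protein-coding ones. Far rows such as the heart muscle marker ACTC1 at -6.10 and an RMRP row at 9.86 weigh on the SD over all genes, and no measure less open to them was taken. The median of expressed genes lay below 0, at a CPM ratio of 0.872, and that place depends on the scaling: 227 genes were at least 2-fold higher and 555 lower as deposited, 345 and 358 after centring on the median, and 107 and 1405 after rescaling to an equal FPKM sum per library (TPM). Groups of subunits are therefore given relative to the median of expressed genes.

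The deposited FPKM needs care when 2 subunits are compared. In 48 of the 62 members the length behind it lay within 1% of the sum of all annotated exons where bases in overlapping exons count repeatedly. That length was a median of 1.48 times the merged exon length, from 0.557 times for MED13L to 5.41 times for POLR2J3. The CPM ratio does not use the length. The log2 ratio of FPKM + 1 does, through the added 1, and so does the order of levels between genes. The highest levels are therefore given per kilobase of merged exon as well.

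**Figure D2:**
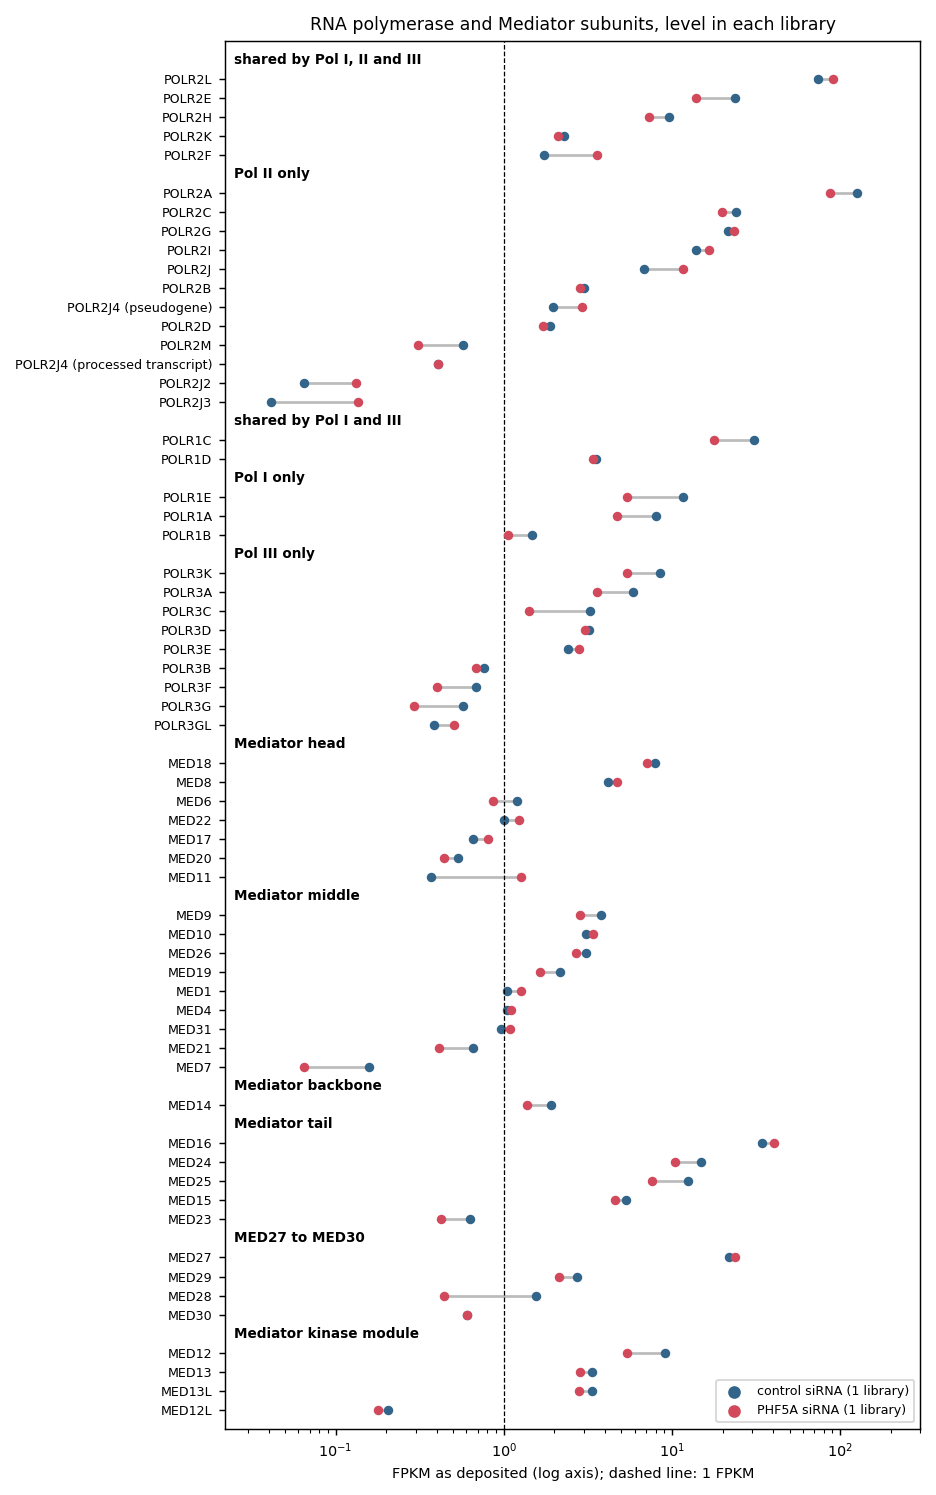
FPKM as deposited (log axis) of member rows in the control and the knockdown library, by role in the complex, with a dashed line at 1 FPKM. POLR2A and POLR2L stand above the other subunits in both libraries, and 15 rows stay under 1 FPKM in both.

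POLR2A, which encodes the catalytic subunit of RNA polymerase II with the tail of heptad repeats, had the highest level of all members. As deposited it had 126.7 (control) and 87.6 (knockdown) FPKM, and 189.8 and 131 FPKM per merged exon length. Its 42110 control counts were 49.5% of all RNA polymerase counts. POLR2L came next with 95.3 and 117 FPKM per merged exon length, then MED16 with 78.4 and 92.9. POLR2A was lower in the knockdown library and the other two were higher. These 3 kept one order in both libraries. POLR2L overlaps CD151 on the opposite strand, and without a stated strand setting their reads cannot be told apart.

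Promoters are shown for 4 members, the 2 with the highest and the 2 with the lowest CPM ratio among the expressed ones whose window held no annotated exon of the same gene. Each is the 200 bases before a RefSeq start, on the plus strand of GRCh38.p14. POLR2A lies at chr17:7484166-7484365, POLR2H at chr3:184361510-184361709, POLR2F at chr22:37953463-37953662 and MED11 at chr17:4731228-4731427. The POLR2F window lies inside the counted POLR2F row, which starts at 37952607. It also lies inside C22orf23 on the opposite strand, which ends at 37953669. The POLR2H window lies inside the row of EIF2B5, on the same strand. Capitals mark matches on either strand to any of 5 motifs. The GC box of the SP1 type is GGGCGG. The CCAAT box and the TATA box (TATAAA) were searched by these letters, and the ETS type as CCGGAAG. The NRF1 type is the palindrome in capitals in POLR2F. Each motif was searched on its own, so matches may overlap. Only 9 promoters were clear of exons of their own gene. MED11 and POLR2F had the highest CPM ratios of all expressed members. POLR2A (0.691) and POLR2H (0.768) were not at the low end, as several other expressed members had lower ratios. The sequences therefore do not show the low end of the range, and a link between motifs and ratios was not tested.
POLR2A: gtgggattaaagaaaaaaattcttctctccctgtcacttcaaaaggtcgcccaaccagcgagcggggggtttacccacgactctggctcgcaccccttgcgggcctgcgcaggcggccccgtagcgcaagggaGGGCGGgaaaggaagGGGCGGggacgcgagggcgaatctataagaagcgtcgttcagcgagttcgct
POLR2H: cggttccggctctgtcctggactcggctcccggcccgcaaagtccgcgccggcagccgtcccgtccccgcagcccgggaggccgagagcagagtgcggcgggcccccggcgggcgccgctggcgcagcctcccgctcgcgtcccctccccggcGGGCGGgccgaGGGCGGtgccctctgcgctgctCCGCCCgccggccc
POLR2F: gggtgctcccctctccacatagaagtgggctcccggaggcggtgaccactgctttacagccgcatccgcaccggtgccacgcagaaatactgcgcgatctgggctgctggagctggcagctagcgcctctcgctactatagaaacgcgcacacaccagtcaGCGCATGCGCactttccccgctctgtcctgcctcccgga
MED11: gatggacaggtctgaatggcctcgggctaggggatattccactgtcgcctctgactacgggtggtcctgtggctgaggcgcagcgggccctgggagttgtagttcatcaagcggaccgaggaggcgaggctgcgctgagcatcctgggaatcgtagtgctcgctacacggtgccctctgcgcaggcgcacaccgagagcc
POLR2A held the GC box 2 times and POLR2H 3 times. POLR2F held a single NRF1-type match and MED11 none of the 5 motifs. Promoter entries were found for 43 of the 61 member symbols, 51 entries in all, since a gene can have several starts that share sequence. ETS-type letters were in 14 of the 51 (27.5%), beside 13.6% of promoters of expressed genes and 7.71% of all 35116. NRF1-type letters were in 5 (9.80%), beside 1.33% and 0.977%. The GC box was in 68.6%, beside 65.4% of promoters of expressed genes and 40.1% of all. TATAAA was in 3.92%, beside 3.90% and 8.59%, and CCAAT in 27.5%, beside 29.6% and 28.0%. A match is a run of letters and not a bound site.

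All 3 members found only in RNA polymerase I lay below the median of expressed genes. Their median was -0.50 relative to it, and it stayed negative under upper-quartile, TPM and protein-coding scaling. Such scaling moves members and all genes nearly alike, so this outcome was largely fixed in advance. POLR1E, which with CD3EAP forms a part related to the initiation factor TFIIF, had 11.6 (control) and 5.41 (knockdown) FPKM. Its counts of 1021 and 463 were 2.15-fold lower (interval 1.93 to 2.41). POLR1A, the largest subunit, had 7.98 and 4.72 FPKM and was 1.69-fold lower (1.60 to 1.79). POLR1B, the second largest, had 1.46 and 1.05 FPKM and was 1.39-fold lower (1.23 to 1.57). None of the 3 was 2-fold lower on the FPKM + 1 scale, where POLR1E came nearest at -0.98. With a pseudocount of 0.1 or 0.5, or with merged exon length, POLR1E passed 2-fold.

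Of the subunits shared by RNA polymerases I and III, POLR1C was lower and POLR1D nearly level. POLR1C had 30.8 and 17.8 FPKM, which is 1.73-fold lower (interval 1.65 to 1.81). POLR1D had 3.53 and 3.37 FPKM, a CPM ratio of 0.953 (0.881 to 1.03). These 2 form the assembly platform that corresponds to the bacterial alpha dimer. POLR1C overlaps YIPF3 and XPO5, which lie on the opposite strand. YIPF3 was 2.16-fold lower (2.07 to 2.25) and XPO5 1.77-fold lower (1.66 to 1.89), so each of these 3 entries was lower. Without a stated strand setting, reads of overlapping entries cannot be told apart.

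Most expressed members found only in RNA polymerase III were lower. POLR3C, which with POLR3F and POLR3G forms the initiation trimer of RNA polymerase III, had 3.26 and 1.42 FPKM. Its counts of 325 and 138 made it 2.30-fold lower (interval 1.88 to 2.82). The partners had few counts, POLR3F 79 and 45 (1.71-fold lower, 1.17 to 2.53) and POLR3G 114 and 57 (1.95-fold lower, 1.41 to 2.73). All members of the trimer were thus lower by counts, 2 of them under 1 FPKM in both libraries. POLR3GL, the paralog that can take the place of POLR3G, had 34 and 44 counts, a ratio of 1.33 (0.829 to 2.14). Its interval includes 1, so its direction is not settled at this depth. POLR3G and POLR3GL summed were 1.43-fold lower (1.10 to 1.86).

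POLR3A, the catalytic subunit, had 5.86 and 3.61 FPKM, which is 1.63-fold lower (interval 1.5 to 1.77). POLR3K, which acts in RNA cleavage and termination, had 8.47 and 5.42 FPKM and was 1.56-fold lower (1.36 to 1.80). Both lay below the median of expressed genes. POLR3D and POLR3E, the pair related to TFIIF, did not share this. POLR3D had 3.22 and 3.03 FPKM, a ratio of 0.940 (0.839 to 1.05). POLR3E had 2.41 and 2.79 FPKM and a ratio of 1.16 (1.06 to 1.26), the only expressed member of this group above 1. POLR3B, the second largest subunit, had 118 and 103 counts, a ratio of 0.895 (0.680 to 1.18). The 6 expressed subunits had a median of -0.42 relative to expressed genes, and 4 of the 6 had an interval wholly below 1. How many of all expressed genes had such an interval was not counted.

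Transcripts made by RNA polymerase III, on 8 rows of which 6 were expressed, took 10.5% of all counts in the control and 16.3% in the other library. Of the 6, 2 rows were at least 2-fold higher and 1 lower (beside 2.53% and 6.2%), and RMRP stands in this count both ways, because its overlapping rows had 236402 and 46866 counts and 28 and 31714. RN7SK, which holds the elongation kinase P-TEFb inactive, was 2.18-fold higher (interval 2.18 to 2.19). RN7SL1 had 1088807 and 1538261 counts, a ratio of 1.45 (1.44 to 1.45). The larger RPPH1 row had 695106 and 961492 counts, a ratio of 1.42 (1.41 to 1.42). Only RMRP was lower, 2.93-fold with its 2 rows summed (2.91 to 2.96), so these RNAs did not all share a direction. Only abundance was measured here, and not polymerase activity.

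Members found only in RNA polymerase II mostly lay above the median of expressed genes. Of the 8 expressed rows 6 lay above the median of expressed genes, and their own median was 0.18 above it. Among the 6 was the POLR2J4 row annotated as a pseudogene, at 0.54. With no filter the median over 12 rows was 0.09. The group median stayed positive under the same 3 scalings, which move it and the median of all genes nearly alike. POLR2A was the lowest of them, at 1.45-fold (interval 1.43 to 1.47). POLR2C, the partner of POLR2J in the alpha-like pair, had 23.9 and 19.8 FPKM and was 1.21-fold lower (1.15 to 1.27). POLR2B, the second largest subunit, had 680 and 633 counts, a ratio of 0.954 (0.855 to 1.07). POLR2D and POLR2G form the stalk, and had ratios of 0.917 (0.794 to 1.06) and 1.08 (1.02 to 1.14). POLR2I, a zinc ribbon subunit at the jaw, had 13.9 and 16.7 FPKM, a ratio of 1.2 (1.11 to 1.29). It overlaps TBCB by 1058 bases on the opposite strand, and the 2 entries summed had a ratio of 1.01.

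POLR2J had the highest ratio of the expressed members found only in RNA polymerase II. It had 6.79 and 11.7 FPKM, with 293 and 493 counts, giving a ratio of 1.73 (interval 1.49 to 2.0). Copies of this gene lie on chromosome 7 and their reads may be shared, which makes single values uncertain. POLR2J2 had 4 and 8 counts, and POLR2J3 had 19 and 61. POLR2J4 had 91 and 131 counts on the row annotated as a pseudogene and 72 and 70 on the row annotated as a processed transcript. All 5 rows summed had 479 and 763 counts, a ratio of 1.63 (1.45 to 1.83), so the sum was also higher. POLR2J3 shares its place with an unnamed coding entry that had 80 and 20 counts, and these 2 summed had 99 and 81. POLR2M, which keeps TFIIF off the polymerase, was under 1 FPKM, with 200 and 105 counts (1.86-fold lower, 1.46 to 2.38). Its overlapping read-through entry GCOM1 had 93 and 24 counts.

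The 5 subunits that all 3 enzymes share went both ways. POLR2E had 23.7 and 13.9 FPKM, 1.70-fold lower (interval 1.64 to 1.77). POLR2H had 9.55 and 7.34 FPKM, 1.30-fold lower (1.22 to 1.38). Its row lies inside that of EIF2B5 on the same strand, and the 2 entries summed were 1.24-fold lower. POLR2K, a small zinc-binding subunit, had 151 and 136 counts, a ratio of 0.923 (0.727 to 1.17). The small subunit POLR2L had 73.7 and 90.6 FPKM and a ratio of 1.23 (1.17 to 1.29). CD151, which overlaps it by 2476 bases on the opposite strand, had a ratio of 1.16 (1.12 to 1.19). POLR2F had 1.74 and 3.58 FPKM, with 444 and 892 counts, a ratio of 2.06 (1.84 to 2.31). Its log2 ratio of 0.74 on the FPKM + 1 scale was the highest of all members. Subunits that sit in the same 3 enzymes thus had both the highest and some of the lowest ratios. The POLR2F row spans several other entries, and summed with the largest overlapping one its ratio was 1.80.

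**Figure D3:**
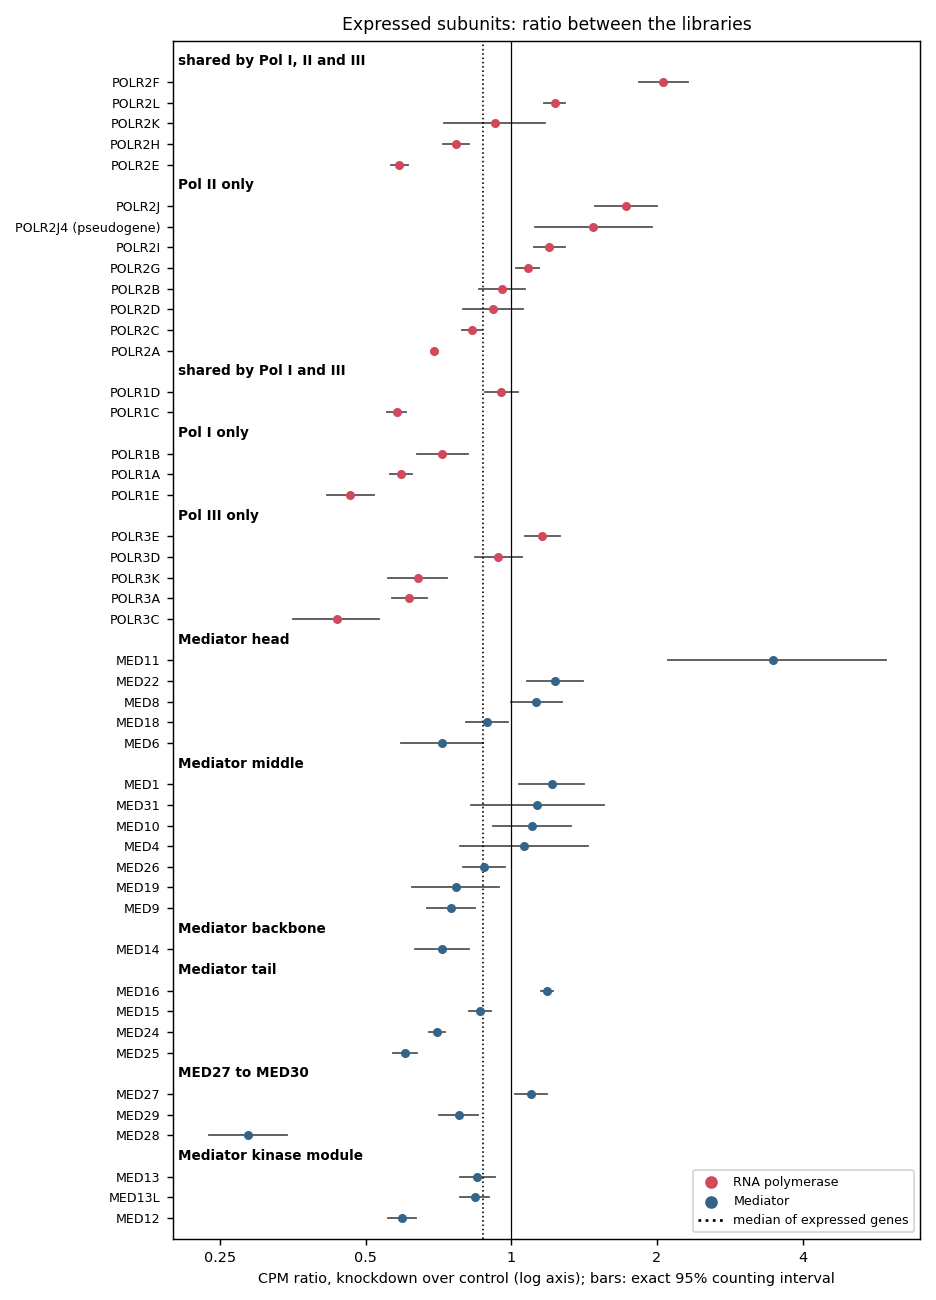
CPM ratio of knockdown over control (log axis) with exact 95% counting intervals for expressed member rows, by role, with the median of expressed genes as a dotted line. The RNA polymerase I rows and most of the RNA polymerase III rows lie left of the dotted line, and POLR2F, POLR2J and MED11 lie farthest right.

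Counterpart subunits of the enzymes were set side by side. The 3 largest subunits were all lower, POLR1A 1.69-fold, POLR2A 1.45-fold and POLR3A 1.63-fold, each with an interval wholly below 1. Among the second largest ones POLR1B was lower, while the intervals of POLR2B and POLR3B included 1. In the stalk, POLR2G had a ratio of 1.08, and TWISTNB of RNA polymerase I had 1.17 (interval 0.916 to 1.51). For the zinc ribbon subunits the ratio was 0.641 for POLR3K, 1.2 for POLR2I and 1.01 for ZNRD1 (0.924 to 1.10). Summed with the entry that overlaps each on the opposite strand, POLR3K with SNRNP25 had 0.821 and POLR2I with TBCB 1.01. The parts related to TFIIF were lower in RNA polymerase I (CD3EAP 2.12-fold, 1.92 to 2.36) and near or above 1 in the others. CD3EAP overlaps ERCC1 on the opposite strand, and their counts summed had a ratio of 0.968. It also overlaps PPP1R13L by 141 bases, which was 2.25-fold lower. CRCP, a stalk subunit of RNA polymerase III, had 387 and 260 counts and was 1.45-fold lower (1.24 to 1.70).

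**Figure D4:**
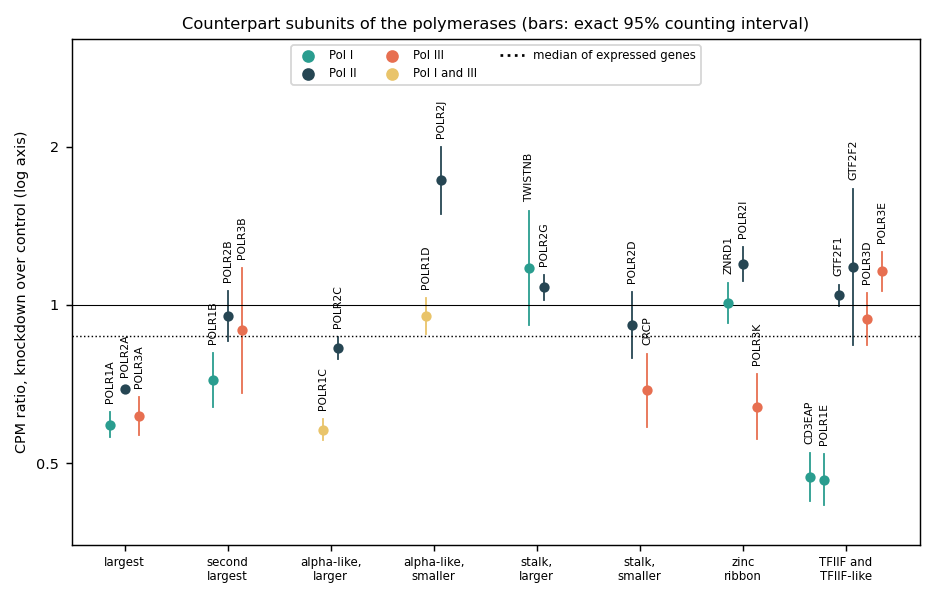
CPM ratio (log axis) with exact 95% counting intervals for counterpart subunits of RNA polymerases I, II and III, by place in the enzyme, with the median of expressed genes as a dotted line. The 3 largest subunits all lie below the dotted line, whereas the zinc ribbon subunits lie apart from each other.

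As a sum over rows, RNA polymerase had 85142 control and 60185 knockdown counts, 1.38-fold lower (interval 1.37 to 1.39). POLR2A weighs on that sum, which without it was 1.32-fold lower (1.30 to 1.34). Mediator counts were 36078 and 30843, 1.14-fold lower (1.12 to 1.16). The sum over the subunits found only in RNA polymerase I was 1.71-fold lower (1.64 to 1.79) and that for RNA polymerase III 1.66-fold lower (1.60 to 1.72). The median CPM ratio of all expressed genes was 0.872.

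Within Mediator the head and middle lay above the median of expressed genes, and the tail and kinase module below it. The 5 expressed head rows had a median of 0.29 relative to it and the 7 expressed middle rows 0.19. The 4 expressed tail rows had -0.18 and the 3 of the kinase module -0.04. These signs held under upper-quartile, TPM and protein-coding scaling. Such scaling moves members and all genes nearly alike, so that outcome was largely fixed in advance. The signs of the head and middle changed where the filter did. For rows of at least 5 FPKM the head was at -0.01, but only 1 row, MED18, entered. With no filter the middle was at -0.08 over 9 rows.

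MED11, a small head subunit, had 21 and 71 counts, and 0.367 and 1.27 FPKM. Its CPM ratio was 3.47 (interval 2.11 to 5.94), the highest of the expressed members, but on few counts. It overlaps CXCL16 by 85 bases on the opposite strand, which had 2785 and 2312 counts. MED22, which MED11 binds in the head, had 405 and 486 counts, a ratio of 1.23 (1.08 to 1.41). MED8 had 4.17 and 4.70 FPKM, a ratio of 1.13 (0.998 to 1.27). MED18, at the movable jaw of the head, had the highest control level of the expressed head rows, 7.93 FPKM as deposited and 16.1 per merged exon length, with 7.06 as deposited in the knockdown library (1.12-fold lower, 1.02 to 1.24). MED6 was the lowest, with 258 and 181 counts (1.39-fold lower, 1.15 to 1.69). MED17, the scaffold of the head, and MED20 were under 1 FPKM in both libraries.

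The middle module varied little, from a log2 ratio of -0.32 to 0.15. MED1, the subunit that nuclear receptors bind, was the highest with 310 and 366 counts, giving a ratio of 1.21 (interval 1.04 to 1.41). MED9 was the lowest and had the highest deposited control FPKM, although MED26 was above it per merged exon length. MED9 had 3.78 and 2.83 FPKM (1.33-fold lower, 1.19 to 1.49). The remaining expressed rows were MED4, MED10, MED19, MED26 and MED31, with ratios from 0.767 to 1.13. MED7 had 20 and 8 counts, which is 2.44-fold lower with an interval from 1.03 to 6.40. It is too thinly counted to place. MED14, the backbone that joins the modules, had 573 and 402 counts and was 1.39-fold lower (1.22 to 1.58).

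The tail held the 2 highest control levels of Mediator per merged exon length, MED16 with 78.4 FPKM and MED24 with 35.4. MED16 had 34.2 and 40.5 FPKM, a ratio of 1.19 (interval 1.15 to 1.22). MED24 had 14.9 and 10.4 FPKM and was 1.43-fold lower (1.37 to 1.48). MED25, a target of viral and cellular activators, had 12.5 and 7.56 FPKM and was 1.66-fold lower (1.57 to 1.75). MED15, which binds the sterol regulators SREBP, had 5.30 and 4.57 FPKM and was 1.16-fold lower (1.10 to 1.23). MED23, which binds MED16 and MED24 in a subcomplex, was under 1 FPKM, with 188 and 124 counts (1.48-fold lower, 1.17 to 1.87). The ratio was thus above 1 for MED16 and below 1 for its partners.

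MED28 had the lowest CPM ratio of all members. Counts were 538 (control) and 150 (knockdown), which is 3.50-fold lower (interval 2.91 to 4.22). At 1.55 and 0.442 FPKM its log2 ratio with 1 added was only -0.82, so it was not at least 2-fold lower on that scale. No entry of at least 20 counts overlaps it, and its 8 pseudogene rows had 0 counts in both libraries. MED27, MED29 and MED30 belong to the same part of Mediator, between head and tail. MED27 had 21.7 and 23.8 FPKM, a ratio of 1.10 (1.02 to 1.18), and MED29 was 1.29-fold lower (1.17 to 1.41). MED30 had 39 and 38 counts.

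In the kinase module, which blocks the polymerase from binding Mediator, all 3 expressed rows had intervals below 1. The share of all expressed genes with such an interval was not taken. The median CPM ratio of expressed genes, 0.872, lay inside the intervals of MED13 and MED13L, and only that of MED12 was wholly below it. MED12, the activator of the CDK8 kinase, had 9.08 and 5.39 FPKM, which is 1.69-fold lower (interval 1.58 to 1.80). MED13, the link to the core, had 3.34 and 2.84 FPKM and was 1.18-fold lower (1.08 to 1.28). Its paralog MED13L had 3.34 and 2.80 FPKM and was 1.19-fold lower (1.11 to 1.28), within the interval of MED13. MED12L, the paralog of MED12, had 79 and 68 counts, a ratio of 0.883 (0.629 to 1.24). MED12 was thus the lowest of the expressed rows of its module. The kinases themselves, CDK8 and CDK19, and cyclin C (CCNC) were under 1 FPKM in both libraries. Their counts were 87 and 117 for CDK8, 120 and 94 for CDK19 and 170 and 208 for CCNC, so the 3 partners together had a ratio of 1.14 (0.989 to 1.31).

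The 15 rows under 1 FPKM in both libraries lay between 0.0414 and 0.801 FPKM, with 4 to 286 control counts. Low counting there limits what can be said of single genes, since 1 count per kilobase was worth 0.0377 FPKM (control) or 0.0386 (knockdown). Of the 47 expressed rows, 26 had an interval wholly below 1, 12 wholly above 1, and 9 included 1. The same shares over all expressed genes were not taken, and the median CPM ratio of those genes, 0.872, is itself below 1. These counts therefore cannot set the members apart.

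Members with many exons had a lower median ratio than those with few. The 29 expressed rows with 1 to 9 exons in the transcript with the most exons had a median log2 ratio of -0.07, beside -0.11 for 3958 protein-coding genes. For 10 to 19 exons the median was -0.46 over 8 rows, beside -0.18 over 2576 genes. For 20 or more it was -0.38 over 10 rows, beside -0.26 over 1143 genes. Of these 10, 8 lay below the median of expressed genes, beside 61.7% of the protein-coding genes with as many exons, and the exceptions were POLR2B and POLR3E. MED28, with 6 exons, was low without being rich in exons.

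Factors that work with these enzymes were counted from lists chosen with earlier results known. Of 11 expressed TFIID subunits, the complex that first binds Pol II promoters, 1 was at least 2-fold higher and 0 lower, beside 2.53% and 6.2% of all expressed genes. TAF10, shared with the SAGA coactivator, had 1048 and 2548 counts, giving a ratio of 2.49 (interval 2.32 to 2.68). It overlaps ILK by 4579 bases on the opposite strand, and the 2 entries summed had a ratio of 1.04. TAF3 had 82 and 164 counts, a ratio of 2.05 (1.56 to 2.71), and TAF8 was 1.45-fold lower (1.28 to 1.65). The TFIID median was 0.12 above the median of expressed genes.

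Among 9 expressed other general factors of RNA polymerase II, 2 were at least 2-fold lower and 0 higher, beside the same 6.2% and 2.53%. GTF2H4, a subunit of the helicase complex TFIIH, had 22.1 and 9.09 FPKM, which is 2.43-fold lower (interval 2.24 to 2.63). Its row overlaps VARS2, which was 1.82-fold lower (1.72 to 1.93). TCEA2, a form of the factor that restarts arrested polymerase, had 4.34 and 1.43 FPKM and was 3.03-fold lower (2.68 to 3.44). ERCC2, a TFIIH helicase, was 1.70-fold lower (1.63 to 1.78). The list had a median of -0.08 relative to expressed genes.

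Assembly factors and enzymes of the heptad repeat tail had 1 of 10 expressed genes at least 2-fold lower (beside 6.2%) and 0 higher (beside 2.53%), with a median of -0.08 relative to expressed genes. CTDSP1, a phosphatase of the tail, had 22.4 and 10.5 FPKM, which is 2.14-fold lower (interval 2.04 to 2.25). GPN2, an assembly GTPase, was 2.02-fold lower (1.83 to 2.22), and RPRD1B, which binds the tail, 2.21-fold lower (1.90 to 2.56) by CPM.

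The factors of RNA polymerase I had 0 of 5 expressed genes past 2-fold in either direction (beside 2.53% higher and 6.2% lower), with a median of -0.21 relative to expressed genes. TAF1C, of the promoter selectivity factor, was 1.82-fold lower (interval 1.69 to 1.97), and UBTF, which covers the ribosomal genes, was 1.45-fold lower (1.33 to 1.57). PTRF, also known as the caveolar protein cavin, had a ratio of 1.43 (1.40 to 1.46). Of 11 expressed factors of RNA polymerase III, 1 was at least 2-fold higher (beside 2.53%) and 0 lower (beside 6.2%). SNAPC2, of the complex that starts small nuclear RNA genes, had 13.6 and 28.7 FPKM, a ratio of 2.11 (1.96 to 2.26). GTF3C2 and GTF3C4, of the DNA-binding factor TFIIIC, were 1.58-fold (1.5 to 1.65) and 1.74-fold (1.57 to 1.92) lower. Their list had a median of 0.19 above the expressed genes, on the other side from the subunits of the enzyme itself. POLRMT, the single-subunit polymerase of mitochondria, had 47.8 and 55.6 FPKM, a ratio of 1.16 (1.13 to 1.2).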

How the data were processed

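Total RNA of 2 HCT116 libraries was made into stranded libraries, per the labels' protocols. HISAT2 2.0.4, Cuffdiff and hg38 are named in the submitters' processing notes. Neither the strand setting nor the annotation release of the counting is given in the sources. The deposited table holds a count and an FPKM value per gene and library, per the file headers. The 2 libraries imply lengths that differ by at most 0.0241% over 18898 genes, so FPKM and count carry the same information. Of 50869 lines, 2 were broken parts of a single entry and were left out. Exons, strand and gene type came from GENCODE release 29, which matched 50110 rows and all 62 members. Promoters came from RefSeq (GRCh38.p14).

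Log2 ratios used FPKM + 1, a minimum of 1 FPKM in the higher library and a 2-fold threshold. For CPM ratios the 95% interval is the exact (Clopper-Pearson) one from a conditional binomial. It covers counting error only: PCR copies make reads dependent. Alternatives were pseudocounts, filters, scalings, CPM and a 1.5-fold threshold. Merged exon length was added after the data were seen. The members and lists were chosen with earlier results of these data known. Named are members past 2-fold, extremes and the highest level of each role, copies, shared subunits and up to 3 genes per list. The other members and the entries that overlap a member were named after their values were seen. Of the members, 1 is not reported here by name and is not drawn among single members, but it enters the counts, medians and sums. The procedure was tested on simulated data. Software was matplotlib 3.10.9, scipy 1.17.1, pandas 2.3.3 and numpy 2.4.6 under Python 3.11.15.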

Additional observations from a re-analysis of the deposited data

How the results depend on the processing

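No paired analysis was possible because each group holds 1 library. As deposited, 0 members were at least 2-fold higher and 1 lower. Higher and lower members were 2 and 4 with a pseudocount of 0.1 (5.24% and 12.6% of expressed genes), 1 and 3 with 0.5 (3.64% and 9.21%), 2 and 4 by CPM with a prior of 0.5 (5.64% and 13.8%), and 3 and 9 at 1.5-fold (8.45% and 18.2%). Lower members were 0 after median centring (4.0% of expressed genes) and after upper-quartile scaling (3.91%), 9 after TPM rescaling (14.5%) and 2 with merged exon length (7.08%). The median of RNA polymerase relative to expressed genes was -0.02. It was -0.41 for rows of at least 5 FPKM and -0.18 with merged exon length, where 14 and 27 rows entered in place of 24. The Mediator median lay between -0.10 and 0.00 under each alternative run. The sign of single members' log2 ratios changed for 14 of the 62 with TPM rescaling, 13 with median centring, 13 with upper-quartile scaling and 7 with protein-coding scaling, and for 0 with the pseudocounts, filters, CPM and merged length. Counts limit single rows: 13 members had under 100 control counts.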
